A study of Mus musculus with 7 samples.

Results

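Insulin-like growth factor (IGF) signalling was described through 9 genes, Igf1, Igf1r, Igf2r, Igfbp2, Igfbp3, Igfbp4, Igfbp5, Igfbp7 and Igfbpl1, in single-cell RNA-seq libraries of mouse brain. The genes were taken by symbol from the 31053 genes of the count tables, and each matched 1 protein-coding gene. IGF1 is a secreted growth factor that signals through IGF1R, a receptor tyrosine kinase that activates the PI3K-AKT-mTOR and RAS-MAPK pathways. IGF2R binds IGF2 and carries it, with mannose-6-phosphate-tagged enzymes, to lysosomes. The IGF binding proteins are secreted carriers that prolong the life of IGFs or keep them from the receptor. IGFBP7 binds IGFs weakly and belongs to the vascular basement membrane, and IGFBPL1 is a related secreted protein named for its IGFBP-like domain. In the brain, IGF1 is known for supporting growth, survival and myelination by oligodendrocytes.

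The 7 libraries came from untreated mice without a stated transgene, 4 from early postnatal and 3 from adult brain. The early postnatal libraries were cortex at postnatal day 2 (P2 cortex), 7 (P7 cortex) and 15 (P15 cortex), and the ventricular-subventricular zone at day 7 (P7 SVZ). The adult libraries, at day 60, were cortex (P60 cortex), grey matter (P60 GM) and white matter (P60 WM). Cortex here was all tissue dorsal to the lateral ventricles and held white and grey matter and the subventricular zone. Grey matter was the tissue above the white matter, white matter held the corpus callosum and the subventricular zone, and SVZ held its dorsal and lateral walls. All mice were CD1 except those of P7 SVZ, which were C57BL/6, so strain, region and library cannot be told apart there. The labels give no animal numbers, and p-values therefore measure only the spread between these libraries, with age, region and library differing together.

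The tables held 2127 to 6379 barcodes and 10074763 to 45668007 unique molecular identifiers (UMIs, counted transcripts) per library, of which 1857 to 4069 barcodes were kept, with median depths of 2791 to 9530.5 UMIs. P7 SVZ lost 2132 barcodes to the limit on mitochondrial UMIs. The 20697 kept cells formed 48 clusters, named as 17 classes by marker genes except for 5 unnamed clusters (738 cells), and the 9 members entered neither step. A class's own marker list was higher in every library of it than in any other class for 11 of 15 classes. The exceptions were the excitatory neuron-, intermediate progenitor-, microglia- and neural precursor-like classes. P7 SVZ stood apart: most of its oligodendrocyte precursor (OPC)-, committed precursor (COP)-, astrocyte- and neural precursor-like cells lay in clusters that held almost no other library's cells. A set of 190 barcodes occurred in more than 1 library, 140 of them among kept cells. Levels below are UMIs of a class in a library scaled to 1000000 UMIs of that class and library (CPM), where at least 20 cells were present.

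Each member had its own order of classes, and over the 14 classes with sums from at least 2 libraries, 7 of the 9 were at least 2-fold higher in their highest class than in the next, by the mean over libraries. Ependymal-like cells, with 1 library, and fibroblast-like cells, with no sum of 20 cells, were left out of this order, though the 33 fibroblast-like cells held more Igfbp2, 5256 CPM pooled, than any class in it. Igf1 and Igfbp4 were highest in border macrophage-like cells, Igf1r and Igfbp3 in endothelial-like cells, and Igf2r and Igfbp7 in mural-like cells (pericytes and smooth muscle). Igfbp2 was highest in astrocyte-like, Igfbp5 in neural precursor-like and Igfbpl1 in intermediate progenitor-like cells. The exceptions to the 2-fold margin were Igfbp3, whose highest class was 1.14 times the next, and Igfbp7, with a ratio of 1.77. Igfbp3 had OPC-like cells as its highest class by the mean over single cells (54.99 CPM) or without P15 cortex (55.1 CPM). For Igf1 the ratio of 2.19 was 1.45 with a mitochondrial limit of 20%, with interneuron-like cells next, and 1.54 without P15 cortex, 1.88 without P60 cortex, 1.95 without P60 GM and 1.89 without P60 WM. These orders are descriptions without a test, since most classes were missing from some libraries.

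**Figure D1:**
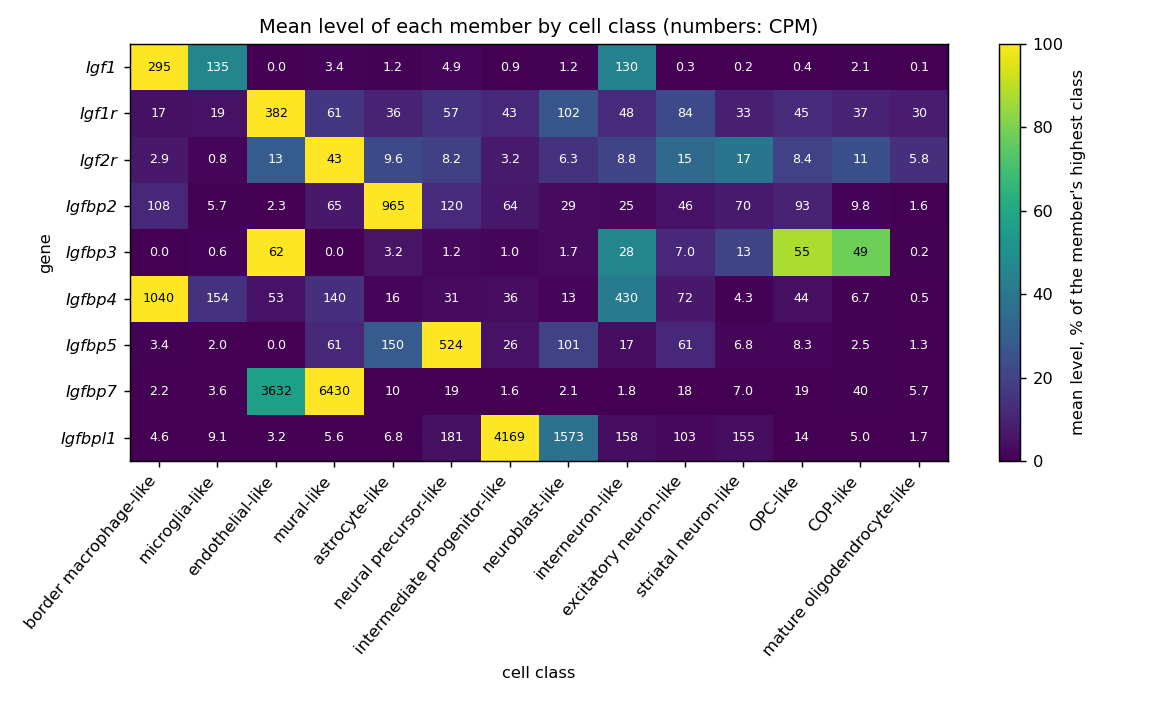
Mean level of each member (rows) in 14 cell classes (columns) with at least 2 libraries. Numbers are mean CPM over libraries, and colour gives that mean as a percentage of the member's highest class. Igfbp2 in astrocyte-like cells (965 CPM) and Igfbpl1 in intermediate progenitor-like cells (4169 CPM) stand out in their rows, whereas Igfbp3 is spread over endothelial-, OPC-, COP- and interneuron-like cells.

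Igf1 (chr10:87858265-87937042, + strand, GRCm38), the ligand, was read mainly from myeloid cells and interneurons. In border macrophage-like cells, the macrophages of meninges and vessels, it reached 209 CPM in P7 cortex, 402 in P15 cortex and 273 in P60 GM. In microglia-like cells it was 549 CPM in P2 cortex, 169 in P7 cortex and 214 in P7 SVZ, then 2.69 in P15 cortex, 0.693 in P60 cortex, 0.380 in P60 GM and 6.91 in P60 WM. Microglia-like cells were thus high at days 2 and 7 and near 0 from day 15, while border macrophage-like cells stayed high to day 60. Counts of cells gave the same order: 15 of 25 microglia-like cells held an Igf1 UMI in P2 cortex, 84 of 358 in P7 cortex and 56 of 133 in P7 SVZ. From day 15 the counts were 5 of 534 in P15 cortex, 2 of 1097 in P60 cortex, 3 of 1124 in P60 GM and 4 of 367 in P60 WM.

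The microglia-like class was made of different clusters at different ages. Cluster 4, whose leading genes included Spp1, Itgax and Igf1 itself, held most P2 and P7 cells and had 199 CPM of Igf1. Clusters 30, 31 and 46, which held most cells from day 15 on, had 1.43, 0.401 and 0.515 CPM. Cluster 46, nearly all from P60 GM, was led by Il1a, Nlrp3 and Icam1, genes of inflammatory activation. Markers of the border macrophage list (7 genes) also dropped in the microglia-like sums, from 75.9, 127 and 292 CPM in P2 cortex, P7 cortex and P7 SVZ to at most 12.1 CPM later. Among P2 cortex, P7 cortex and P7 SVZ, the list was lowest in P2 cortex, where Igf1 was highest. The part of such cells in the Igf1 difference was not tested.

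Among the 14 ordered classes, interneuron-like cells were the other Igf1-rich class, with 136 CPM in P2 cortex and 123 CPM in P7 SVZ. Within it, Igf1 followed the subtype clusters: 312 CPM in cluster 13, led by Vip, and 330 CPM in cluster 44, 23 older cells also led by Vip, against 30.4 CPM in cluster 11, led by Sst. The P7 SVZ value came from 5 of 38 cells, 1 of which held 41 of the 60 UMIs. Outside these classes Igf1 stayed low in every sum of a class in a library. It was 0 to 1.93 CPM in OPC-like cells, 0 in all 4 endothelial-like sums and at most 10.98 CPM in any other sum. The fibroblast-like class had no such sum, and its 33 cells held 34 Igf1 UMIs. These were 1.62% of the total from 0.159% of cells. Of all Igf1 UMIs, 43.2% lay in microglia-like, 31.8% in interneuron-like and 15.8% in border macrophage-like cells, which were 0.904% of cells.

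**Figure D2:**
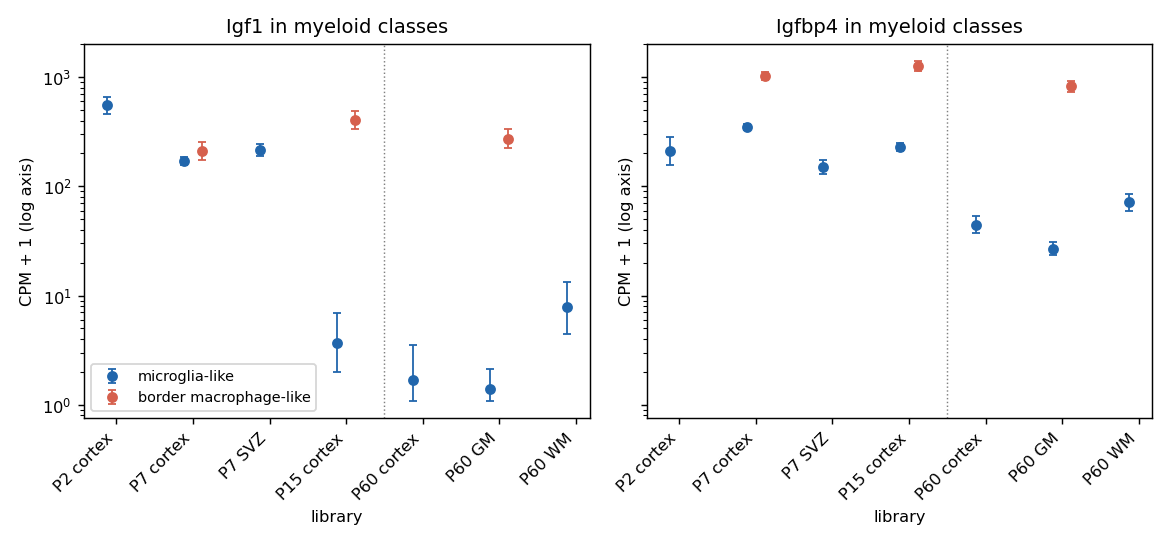
Igf1 (left) and Igfbp4 (right) by library in microglia-like (blue) and border macrophage-like (red) cells, as CPM + 1 on a log axis with exact Poisson 95% intervals, which cover counting error only; the dotted line separates early postnatal from adult libraries. Igf1 in microglia-like cells is at 169 to 549 CPM in the first 3 libraries and below 7 CPM in the other 4, whereas Igfbp4 in border macrophage-like cells stays between 826 and 1264 CPM.

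Igf1r (chr7:67952827-68233668, + strand), the signalling receptor, was found in every class. Endothelial-like cells had 350.1 CPM in P15 cortex, 454 in P60 cortex, 405 in P60 GM and 319.6 in P60 WM. Neuroblast-like cells, the next class, had 83.1 CPM in P2 cortex, 82.0 in P7 cortex, 96.8 in P7 SVZ, 106 in P15 cortex, 149 in P60 cortex and 97.7 in P60 WM. The 2 ranges did not overlap, whereas neuroblast-like cells overlapped the next class, excitatory neuron-like cells, at 42.6 to 126 CPM. Microglia-like cells were low, at 8.93 to 38.7 CPM, and OPC-like cells had 29.8 to 76.6 CPM. Insr, the related insulin receptor, was 142.6 CPM in P15 cortex, 134 in P60 cortex, 63.9 in P60 GM and 76.1 in P60 WM in endothelial-like cells.

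Igf2r (chr17:12682406-12769664, − strand), the clearance receptor, was low throughout. Mural-like cells had 90.2 CPM in P7 SVZ (16 UMIs), 31.2 in P15 cortex, 26.7 in P60 cortex and 24.6 in P60 WM, so that 1 small sum raised the class mean. Without P7 SVZ the mural-like mean was 27.5 CPM and 1.68 times the next class, and the 1 ependymal-like sum, from P7 cortex, had 26.6 CPM. In microglia-like cells Igf2r did not exceed 2.52 CPM in any library. Its ligand Igf2 was close to absent, with 6 UMIs in all 65 class and library sums, 4 of them in mural-like cells of P7 SVZ.

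Igfbp2 (chr1:72824503-72852474, + strand), a carrier known from astrocytes and fluid-contacting cells, was the astrocyte member. Astrocyte-like cells had 1819 CPM in P2 cortex, 2033 in P7 cortex, 148 in P7 SVZ, 728 in P15 cortex, 790.1 in P60 cortex, 711 in P60 GM and 524.5 in P60 WM. P7 SVZ was the one low library, and P2 and P7 cortex were the highest. After each cell was thinned to 2000 UMIs, 82.5%, 78.6%, 21.5%, 60.2%, 68.2%, 57.8% and 50.6% of astrocyte-like cells held an Igfbp2 UMI in the same library order, and 90.2%, 87.9%, 34.6%, 73.5%, 70.7%, 57.5% and 47.7% did before thinning. Microglia-like cells gave a background of 0% to 4.02% (0% to 15.1% unthinned) in the 6 libraries with enough cells. Median depths were 2366 to 8323 UMIs in astrocyte-like and 2478 to 8267 UMIs in these microglia-like cells, and 5 to 208 astrocyte-like and 1 to 310 microglia-like cells per library were too shallow to thin. Of all Igfbp2 UMIs, 72.0% lay in astrocyte-like cells, which were 18.5% of cells. The 33 fibroblast-like cells of cluster 22 had a pooled level of 5256 CPM.

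OPC-like cells had less Igfbp2, at 200.2 CPM in P2 cortex, 178 in P7 cortex, 68.5 in P7 SVZ, 61.2 in P15 cortex, 34.6 in P60 cortex, 103 in P60 GM and 2.75 in P60 WM. The order of astrocyte-like over OPC-like cells held within all 7 libraries. Markers of the astrocyte list (8 genes) summed to 112 to 651 CPM in OPC-like cells, lowest in P2 cortex, where Igfbp2 was highest.

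Igfbp3 (chr11:7206086-7213923, − strand), a carrier of circulating IGFs, was found in endothelial-, OPC-, COP- and interneuron-like cells. OPC-like cells had 27.1 CPM in P2 cortex, 36.9 in P7 cortex, 20.2 in P7 SVZ, 52.5 in P15 cortex, 74.1 in P60 cortex, 89.4 in P60 GM and 82.6 in P60 WM. All 3 adult libraries lay above all 4 early postnatal ones. COP-like cells had 44.9 CPM in P2 cortex, 45.6 in P7 cortex, 4.28 in P7 SVZ, 30.6 in P15 cortex, 57.7 in P60 cortex and 109 in P60 WM. Endothelial-like cells spanned 30.4 to 108 CPM, overlapping both, and mature oligodendrocyte-like cells had at most 0.561 CPM. In P7 cortex, 84 cells with endothelial markers, 81 of them from an unnamed cluster, held no Igfbp3 UMI. Interneuron-like cells had 50.7 CPM in P2 cortex, above the OPC-like and COP-like values of that library, and 6.16 CPM in P7 SVZ. Astrocyte-like cells were lower than OPC-like cells in all 7 libraries, and markers of the endothelial list (8 genes) summed to 16.4 to 59.6 CPM in the OPC-like class.

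**Figure D3:**
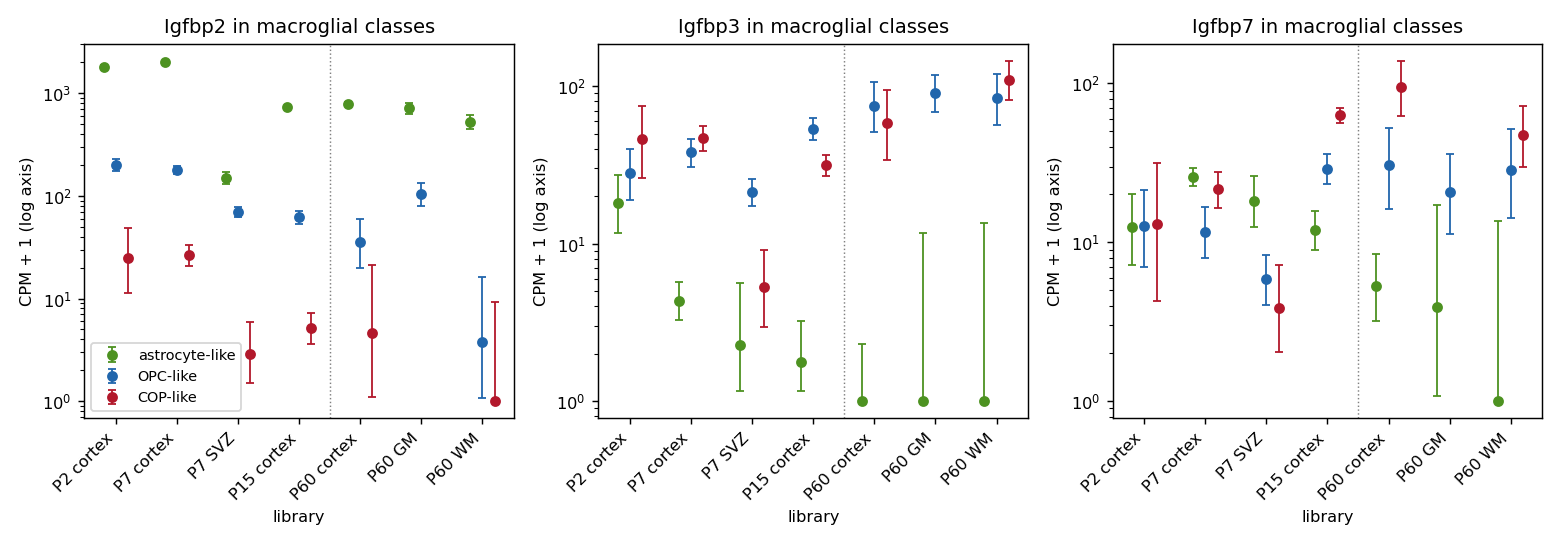
Igfbp2, Igfbp3 and Igfbp7 by library in astrocyte-like (green), OPC-like (blue) and COP-like (red) cells, as CPM + 1 on a log axis with exact Poisson 95% intervals, which cover counting error only; P60 GM held too few COP-like cells. Igfbp2 separates the classes in the order astrocyte-, OPC- and COP-like, and Igfbp3 in OPC-like cells is at 20.2 to 52.5 CPM before and 74.1 to 89.4 CPM after the dotted line between early postnatal and adult libraries.

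Igfbp4 (chr11:99041244-99054392, + strand), a carrier that blocks IGFs until it is cut by the protease PAPPA, was highest in macrophages among the 14 ordered classes. Border macrophage-like cells had 1029.8 CPM in P7 cortex, 1264 in P15 cortex and 826 in P60 GM. Microglia-like cells had 209.9 CPM in P2 cortex, 351 in P7 cortex, 149.6 in P7 SVZ, 228 in P15 cortex, 43.6 in P60 cortex, 25.8 in P60 GM and 70.4 in P60 WM. The 2 classes did not overlap, and the adult microglia-like values lay below all early postnatal ones. Unlike Igf1, Igfbp4 was still high in microglia-like cells at day 15. Interneuron-like cells differed widely between their 2 libraries, 118 CPM in P2 cortex and 741 CPM in P7 SVZ. Igfbp4 was not particular to macrophages. Outside the ordered classes, the 33 fibroblast-like cells held 326 Igfbp4 UMIs, 3.74% of the total from 0.159% of cells. In P7 cortex, 84 cells with endothelial markers, 81 of them from an unnamed cluster, had 632 CPM.

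Igfbp5 (chr1:72857932-72874884, − strand) lies next to Igfbp2, 5457 bases away, but had another pattern. Neural precursor-like cells had 298 CPM in P2 cortex, 553 in P7 cortex, 594 in P7 SVZ, 803 in P15 cortex and 373.5 in P60 WM. Within them it was high in cluster 1 (826 CPM, led by Vnn1 and Thbs4) and cluster 38 (955 CPM), and low in cluster 0 (175 CPM, led by the mitotic genes Cdc20 and Ccnb1) and cluster 37 (203 CPM, led by Egfros). The gap between clusters 1 and 0 was present in each of 3 libraries with values for both: 407 against 153 CPM in P2 cortex, 949 against 136 CPM in P7 cortex and 1609.9 against 274 CPM in P15 cortex. Of all Igfbp5 UMIs, 59.7% lay in neural precursor-like cells, 10.5% of cells, and 19.6% in astrocyte-like cells, 18.5% of cells. Astrocyte-like cells reached 430 CPM in P7 SVZ, inside the neural precursor-like range. After thinning to 2000 UMIs, 34.2% to 67.9% of neural precursor-like cells held a UMI. The share was 45.2% in astrocyte-like cells of P7 SVZ (73.8% unthinned) and 31.3% in ependymal-like cells of P7 cortex (54.2% unthinned). Endothelial-like cells had no Igfbp5 UMI among 250 cells.

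Igfbp7 (chr5:77349240-77408041, − strand) was a vascular gene. Mural-like cells had 3158 CPM in P7 SVZ, 11732 in P15 cortex, 6488 in P60 cortex and 4342 in P60 WM. Endothelial-like cells were steadier, at 4188 CPM in P15 cortex, 3447 in P60 cortex, 3628 in P60 GM and 3264 in P60 WM. All thinned mural-like cells and 93.9% to 100% of thinned endothelial-like cells held a UMI, against 0% to 1.44% of microglia-like cells. Thinning left out 0 to 41 mural-like and 1 to 46 endothelial-like cells per library, with unthinned shares of 95.6% to 100% in both and 0% to 5.03% in microglia-like cells. No other class sum exceeded 93.8 CPM. Markers of the fibroblast list (7 genes) summed to 281 to 1139.7 CPM in the mural-like class and were highest in P15 cortex, where Igfbp7 was highest too, and their part in its level was not tested. An unnamed cluster, 17, with endothelial markers but led by the haemoglobin genes Hbb-bs and Hba-a1, held 125 cells and 4813 CPM of Igfbp7, and unnamed clusters together held 40.6% of all its UMIs.

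Igfbpl1 (chr4:45809468-45826923, − strand) was highest in intermediate progenitor- and neuroblast-like cells but was not confined to them. Intermediate progenitor-like cells had 4461 CPM in P2 cortex, 4422 in P7 cortex and 3624 in P7 SVZ. Neuroblast-like cells had 1475 CPM in P2 cortex, 1438 in P7 cortex, 652 in P7 SVZ, 2106 in P15 cortex, 1834 in P60 cortex and 1933 in P60 WM. The classes did not overlap, and the neuroblast-like level at day 60 was no lower than at days 2 and 7. In thinned cells, 96.3% to 100% of intermediate progenitor-like and 71.5% to 100% of neuroblast-like cells held a UMI, against 0% to 4.31% of microglia-like cells. Before thinning these were 98.2% to 100%, 85.1% to 100% and 0% to 10.6%, and thinning left out 1 to 5, 2 to 73 and 1 to 310 cells per library. In P2 cortex, thinned shares were 45.3% in excitatory neuron-like, 47.1% in striatal neuron-like and 35.3% in interneuron-like cells (73.7%, 88.2% and 56.7% unthinned). The thinned share in neural precursor-like cells of P60 WM was 36.8% (51.3% unthinned). Of all Igfbpl1 UMIs, 23.0% lay in excitatory neuron-like cells, which were 9.06% of cells. Among adult libraries, only P60 cortex and P60 WM, which include the subventricular zone, had a neuroblast-like sum, and P60 GM held 2 Igfbpl1 UMIs in all.

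Over class means of log2(CPM + 1), with 13935 genes of at least 10 CPM in 1 class, the genes most like a member were named by rank of Pearson's r over 15 classes, with no test. Igfbpl1 was close to Scrt2 (r = 0.95), a neuronal zinc-finger repressor, and Txnrd1 (0.91). Igfbp7 was closest to Gja4 (0.94), an arterial connexin, Tinagl1 (0.94) and Hspg2 (0.94), which encodes perlecan of the basement membrane. Igfbp2 ranked Sh3pxd2b (0.92), Fads2 (0.89) and Acsl6 (0.89) first, the last 2 being enzymes of long-chain fatty acids. Igfbp5 ranked Tmem218 (0.90), Tnc (0.87) and Rgs20 (0.86), and Tnc is one of the neural precursor markers used to name classes. Igf1 was followed by Maf (0.89), also an interneuron marker, Ch25h (0.84) and Gdi2 (0.82). For the receptors the list was Dgcr14 (0.86), Ltbp4 (0.85) and Cdkn2aip (0.84) for Igf1r, and Qsox2 (0.90), Mapkap1 (0.88) and Axin2 (0.86) for Igf2r. Igfbp3 was closest to Slc1a1 (0.88), Cdh13 (0.85) and Mrgpre (0.84), and Igfbp4 to Nabp1 (0.86), Dnajc13 (0.85) and Gm26759 (0.83). The points share libraries and depth and are few for 13935 genes.

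Adult and early postnatal libraries were then compared within each class, on counts summed per library, with edgeR's quasi-likelihood test and Benjamini-Hochberg adjustment over all genes tested. The question was which members differ with age in the precursors and in the cells around them. In OPC-like cells, 8 of the 9 members passed the filter on low counts and 1 was called, where 6.72% of all 9752 genes were called (3.12% higher and 3.60% lower in adults). An unadjusted p under 0.05 was found for 4 members and for 22.3% of all genes. The member was Igfbp3, at 34.2 ± 14.0 CPM (SD, n = 4) in early postnatal and 82.0 ± 7.68 CPM (SD, n = 3) in adult libraries. Its log2 difference was 1.08 ± 0.30 (SE), with an edgeR adjusted p of 0.0483. The groups did not overlap, and the share of all genes without overlap was not counted. The call was lost on leaving out any library other than P15 cortex, with edgeR adjusted p from 0.0512 to 0.195 and a log2 difference from 0.89 to 1.14. In the same sums the microglia list (8 genes) was at 11.6 to 108 CPM in early postnatal and 116 to 1089 CPM in adult libraries, and the astrocyte list at 112 to 352 and 399 to 651 CPM. Microglia-like cells had at most 2.52 CPM and adult astrocyte-like cells 0 CPM of Igfbp3.

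Other members of the OPC-like class had large but scattered differences that did not pass. Igfbp2 was 127 ± 72.5 CPM (SD, n = 4) early and 46.7 ± 51.0 CPM (SD, n = 3) in adults, with an edgeR adjusted p of 0.183. Igfbp4 was 52.5 ± 15.6 and 33.6 ± 8.38 CPM, with an edgeR adjusted p of 0.166. Igfbpl1 was 63.8 CPM in P2 cortex, 16.0 in P7 cortex, 11.4 in P7 SVZ, 1.34 in P15 cortex and 0 to 2.75 in adults, with an edgeR adjusted p of 0.121. The median log2 difference over the 8 members was 0.07, against 0.01 over all genes. Of 47 other genes of IGF and insulin signalling, 32 were tested and 2 were called. Grb14, an adaptor that inhibits the insulin receptor, rose by 1.62 ± 0.37 on the log2 scale (edgeR adjusted p = 0.0236), from 13.5 to 44.8 CPM early to 57.9 to 99.3 CPM in adults. Grb10, an imprinted inhibitor of both receptors, fell by 4.95 ± 1.25 on the log2 scale (edgeR adjusted p = 0.0342), from 5.35 to 43.5 CPM to at most 2.75 CPM. Each of these calls was lost on leaving out some single libraries: P2 cortex, P7 cortex, P60 cortex or P60 GM for Grb14 and any adult library for Grb10.

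The other classes gave no member call with every gene adjusted. In microglia-like cells 0 of 5 tested members were called (0.0314% of all genes), though Igf1 and Igfbp4 had an unadjusted p under 0.05 by edgeR, as did 13.1% of all genes. Igfbp4 was 235 ± 84.5 CPM (SD, n = 4) early and 46.6 ± 22.4 CPM (SD, n = 3) in adults, a log2 difference of -2.28 ± 0.40 with an edgeR adjusted p of 0.139. Igf1 had a log2 difference of -6.77 ± 1.62 and an edgeR adjusted p of 0.175, with P15 cortex among the low libraries. DESeq2 called both, as did edgeR without P15 cortex. Without P15 cortex edgeR called 610 of 9325 genes, against 3 with all libraries. The settings other than leaving out a library, DESeq2 among them, called 2 to 273 genes. In astrocyte-like cells 0 of 7 tested members were called (0.307% of all genes), 2 of them with an unadjusted p under 0.05 (26.9% of all genes). Igfbp4 went from 26.6 ± 22.7 to 1.80 ± 1.57 CPM and Igfbp7 from 16.1 ± 6.51 to 2.39 ± 2.19 CPM. Each had an edgeR adjusted p of 0.0727, and DESeq2 called both. Neither overlapped between the ages, and the share of all genes without overlap was not counted. Border macrophage-like cells had at least 826 CPM of Igfbp4 and mural-like cells at least 3158 CPM of Igfbp7. The part of RNA from other cells was not tested. In astrocyte-like cells the settings other than leaving out a library, DESeq2 among them, called 31 to 981 genes.

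In COP-like cells 0 of 6 tested members were called (0.0323% of all genes), none of them with an unadjusted p under 0.05 (11.6% of all genes) and none by DESeq2. In neuroblast-like cells 0 of 5 were called (0.0224%), and Igfbp2, at 41.2 ± 36.3 CPM (SD, n = 4) early and 4.77 ± 1.35 CPM (SD, n = 2) in adults, was the 1 member with an unadjusted p under 0.05 (5.59% of all genes), and DESeq2 called none. In mural-like cells, 2 libraries against 2, 0 of 4 were called by edgeR or DESeq2 and none had an unadjusted p under 0.05, against 0% and 8.71% of all 2778 genes. There the sign for Igfbp7 turned with the early library left out: -1.16 without P7 SVZ (edgeR adjusted p = 3.8e-05) and 0.78 without P15 cortex (edgeR adjusted p = 0.0110), each with 1 early library assumed to vary like the adult ones. No pathway gene was called in any of these 5 classes, and Igf2 did not pass the filter in any fit.

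Endothelial-like cells had 1 early postnatal library and were not tested. A comparison added after the data were seen joined them with cluster 17, giving P7 cortex (84 cells, 81 from cluster 17) and P15 cortex (64 cells, 30 from it) against the 3 adult libraries. Igfbp4 was 632 CPM in P7 cortex and 195 in P15 cortex, and 0 in P60 cortex, 42.6 in P60 GM and 0 in P60 WM. It was the 1 of 4 tested members called, with a log2 difference of -4.56 ± 0.84 and an edgeR adjusted p of 0.00893, where 9.88% of all genes were called (4.28% lower). DESeq2 did not call it (adjusted p = 0.296), nor did edgeR without P60 cortex (adjusted p = 0.0527) or without P60 WM (adjusted p = 0.0590). Cells of cluster 17 came from early postnatal libraries only, so cluster and age cannot be told apart, and red blood cell markers were at 20046 CPM in P7 cortex and 19292 CPM in P60 GM but at most 19.7 CPM in the other 3. Igf1r and Igfbp7 had log2 differences of 0.66 ± 0.34 (edgeR adjusted p = 0.269) and -0.49 ± 0.25 (edgeR adjusted p = 0.254). Igfbp3, also tested and not called, was 0 CPM in P7 cortex, 44.7 in P15 cortex, 76.4 in P60 cortex, 34.1 in P60 GM and 30.4 in P60 WM.

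Whether the age difference itself differs between astrocyte-like and OPC-like cells was tested with an interaction term, with the library as a block. No member was called of 8 tested, by edgeR or by DESeq2 (1.77% of all 11408 genes by edgeR), and 4 had an unadjusted p under 0.05 (19.5% of all genes). The closest was Igfbp7, with a difference of -3.23 ± 0.93 on the log2 scale and an edgeR adjusted p of 0.0839, lower with age in astrocyte-like and not in OPC-like cells by their means. Without P15 cortex 4 members passed, where 1644 of 10808 genes were called, against 202 with all libraries. Of 34 pathway genes tested, Htra1, a secreted protease that cuts IGF binding proteins, was the one called, at -1.97 ± 0.36 (edgeR adjusted p = 0.0197). The call was lost without P7 cortex, P60 cortex, P60 GM or P60 WM, with edgeR adjusted p of 0.0618 to 0.147.

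OPC-like and COP-like cells of the same library were compared next, within each of 6 libraries. The COP-like class was not committed precursors alone. Cluster 23 (184 cells) had Gpr17 and Neu4 among its leading genes. Clusters 20 (457 cells) and 33 (138 cells) had Enpp6 and Bcas1, and cluster 32 (118 cells) 9630013A20Rik and Nfasc. Enpp6 is a gene of newly formed oligodendrocytes, so the comparison spans committed precursors and later cells. Of 6 members tested, 2 fell and 2 rose, where 53.1% of all genes were called (26.7% higher and 26.4% lower), so that 4 of 6 is near the background. Igfbp2 fell in 6 of 6 libraries, from the OPC-like values given above to 24.0 CPM in P2 cortex, 25.4 in P7 cortex, 1.90 in P7 SVZ, 4.15 in P15 cortex, 3.61 in P60 cortex and 0 in P60 WM. The log2 difference was -3.20 ± 0.22 (edgeR adjusted p = 2.03e-08). These COP-like levels were close to those of microglia-like cells of the same libraries, at 8.93, 19.997, 0, 3.59, 4.16 and 0 CPM. Igfbp4 fell in 6 of 6 libraries by 2.79 ± 0.20 on the log2 scale (edgeR adjusted p = 2.70e-08), from 24.7 to 71.6 CPM in OPC-like to 2.21 to 14.98 CPM in COP-like cells. Its 2 ranges did not overlap.

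Igfbp7 rose by 1.14 ± 0.23 on the log2 scale (edgeR adjusted p = 0.000706). It was 11.6 CPM in OPC-like and 11.98 in COP-like cells of P2 cortex, 10.7 and 20.6 in P7 cortex, 4.83 and 2.86 in P7 SVZ, 28.1 and 61.9 in P15 cortex, 29.6 and 93.8 in P60 cortex and 27.5 and 46.5 in P60 WM. COP-like cells were thus higher in 5 of 6 libraries, P7 SVZ being the exception. The endothelial list, of cells where Igfbp7 is abundant, summed to 39.9 to 104 CPM in COP-like and 16.4 to 50.05 CPM in OPC-like cells of these libraries, and their part in the difference was not tested. Igf2r rose by 0.69 ± 0.25 on the log2 scale, higher in 5 of 6 libraries (edgeR adjusted p = 0.0294). That call was lost with DESeq2 (adjusted p = 0.0882), with at least 50 cells a sum (edgeR adjusted p = 0.0735) and without P2 cortex (edgeR adjusted p = 0.0811), and Igf2r fell below the filter without P7 cortex, P7 SVZ or P15 cortex. Igf1r, lower in 6 of 6 libraries, had a log2 difference of -0.19 ± 0.12 (edgeR adjusted p = 0.211), and Igfbp3, higher in 3 of 6, one of -0.06 ± 0.25 (edgeR adjusted p = 0.856). Igf1, Igfbp5 and Igfbpl1 did not pass the filter. The mature oligodendrocyte list summed to 11967 to 43184 CPM in COP-like and 40.6 to 834 CPM in OPC-like cells of these libraries.

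**Figure D4:**
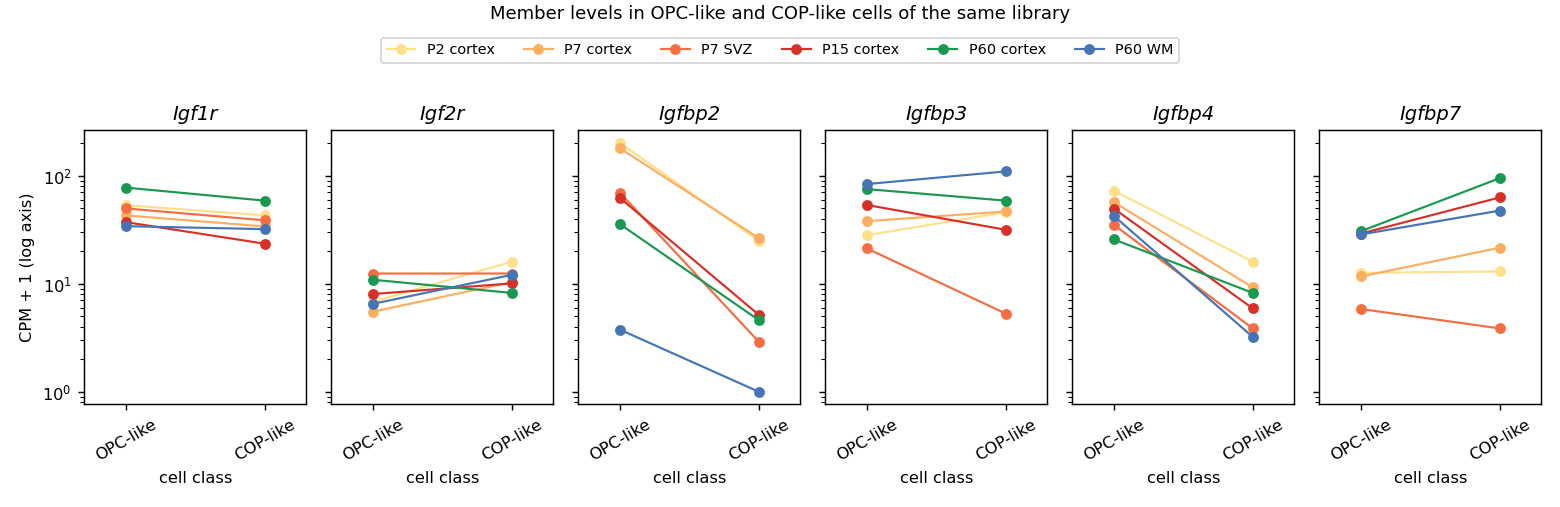
Levels of the 6 tested members in OPC-like and COP-like cells, as CPM + 1 on a log axis, with 1 line per library. Every line falls for Igfbp2 and Igfbp4, 5 of 6 rise for Igfbp7, and lines cross for Igfbp3.

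The promoters of the 3 members with the firmest difference between OPC-like and COP-like cells are shown because Igfbp2 and Igfbp4 fell together while Igfbp7 rose. They are the 250 bases before the RefSeq gene start on the build GRCm38.p6, at chr1:72824230-72824479 (+ strand), chr11:99040994-99041243 (+ strand) and chr5:77408046-77408295 (− strand). RefSeq had such an entry for 8 of the 9 members. Igfbp2 had 2 starts, and the window of the upstream one is shown. Capitals mark matches on either strand to 3 motifs. The core of a GC box was searched as GGGCGG in each window. The TATA box, bound by the general transcription machinery, was searched as TATAAA. The E-box, a site of basic helix-loop-helix factors, was searched as CACGTG.
Igfbp2: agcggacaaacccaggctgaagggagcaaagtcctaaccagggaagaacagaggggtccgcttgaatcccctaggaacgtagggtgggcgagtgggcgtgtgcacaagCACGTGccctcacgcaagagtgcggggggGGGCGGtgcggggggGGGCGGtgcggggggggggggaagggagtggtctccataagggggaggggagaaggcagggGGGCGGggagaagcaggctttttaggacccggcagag
Igfbp4: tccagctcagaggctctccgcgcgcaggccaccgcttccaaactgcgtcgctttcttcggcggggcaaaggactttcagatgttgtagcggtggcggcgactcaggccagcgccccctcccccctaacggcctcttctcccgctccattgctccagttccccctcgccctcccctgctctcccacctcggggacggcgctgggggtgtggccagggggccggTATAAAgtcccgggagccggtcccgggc
Igfbp7: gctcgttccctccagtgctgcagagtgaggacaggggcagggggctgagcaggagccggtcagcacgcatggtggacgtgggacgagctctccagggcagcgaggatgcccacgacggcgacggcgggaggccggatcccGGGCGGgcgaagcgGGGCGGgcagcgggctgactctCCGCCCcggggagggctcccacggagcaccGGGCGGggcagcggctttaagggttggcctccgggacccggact
The Igfbp2 window held 3 GC boxes and 1 E-box, the Igfbp4 window 1 TATA box and the Igfbp7 window 4 GC boxes. Among 32851 windows of the same length, 32.7% held a GC box, 12.4% a TATA box and 6.02% an E-box so defined. The 2 members that fell shared none of the 3 motifs, which says only that these letters are not in both windows.

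Other genes of the pathway differed between OPC-like and COP-like cells in both directions, with 7 higher and 8 lower of 31 tested, again near the background. Pik3r3, a regulatory subunit of PI3K, had 5.51 to 17.6 CPM in OPC-like and 114 to 310.3 CPM in COP-like cells, a log2 difference of 4.12 ± 0.15 (edgeR adjusted p = 3.72e-11). Irs1, the substrate that links the receptors to PI3K, rose by 2.46 ± 0.18 (edgeR adjusted p = 3.34e-08), and Rictor, a subunit of mTOR complex 2, by 2.10 ± 0.22 (edgeR adjusted p = 1.17e-06), both on the log2 scale. Htra1 fell by 1.65 ± 0.27, Stat5b, a growth hormone signal transducer, by 1.63 ± 0.28, and Eif4ebp1, a translation repressor under mTOR control, by 1.48 ± 0.24, with edgeR adjusted p of 0.000109, 0.000162 and 0.000104. Insr had a difference of -0.34 ± 0.17 and did not pass (edgeR adjusted p = 0.1002). The median log2 difference of the 31 genes was 0.06, and that of the 6 members -0.13, against 0.01 over all genes.

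White and grey matter of day 60 were compared with 1 library a side, so without a test. A difference was counted where the ratio was at least 2-fold and its exact 95% interval, which covers counting error only, lay on 1 side of 1. Of 25 member and class pairs with at least 10 UMIs, 5 were counted. Over all genes the share counted was 11.2% in OPC-like, 10.6% in astrocyte-like, 8.54% in endothelial-like, 11.3% in mature oligodendrocyte-like and 19.4% in microglia-like cells. Igfbp2 in OPC-like cells was 2.75 CPM in P60 WM (1 UMI) and 103 CPM in P60 GM (62 UMIs), a ratio of 0.0268 (interval 0.000669 to 0.155). In both libraries nearly all these cells lay in cluster 12, and P60 cortex had 34.6 CPM. The microglia and astrocyte lists in these sums were at 116 and 399 CPM in P60 WM and 1089 and 651 CPM in P60 GM, and their part was not tested. Igfbp2 itself was 2.91 CPM in microglia-like and 711 CPM in astrocyte-like cells of P60 GM. Microglia-like cells had more Igfbp4 in P60 WM, 70.4 against 25.8 CPM (ratio 2.73, interval 2.14 to 3.45), and more Igf1, 6.91 against 0.380 CPM (ratio 18.2, interval 4.81 to 101.6). The latter rests on 11 and 3 UMIs, 7 of them in 1 cell, and the microglia-like cells lay in clusters 30 and 31 in P60 WM and cluster 46 in P60 GM. The remaining pairs were Igfbp2 in microglia-like cells, 0 against 2.91 CPM, and Igfbp4 in endothelial-like cells, 0 against 42.6 CPM.

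P7 SVZ and P7 cortex were set side by side in the same way, again with 1 library a side and with strain differing. Of 53 pairs in 7 classes, 21 were counted (39.6%), 4 higher and 17 lower in P7 SVZ, where 17.4% of all gene and class pairs and 21.8% of those of pathway genes were. The counted pathway pairs were 26 higher and 26 lower, and over all genes the directions were not counted apart. A gene can be counted in several classes, so the 21 pairs are not separate results. Binding proteins made up most of the lower values, and receptors 3 of the 4 higher ones. Over all kept cells of a library, every member except Igf1r and Igf2r was also lower in P7 SVZ than in P7 cortex. There Igfbp2 was 32.3 against 701 CPM, Igfbp7 28.1 against 191, Igfbp4 28.5 against 104, Igf1r 59.7 against 46.4 and Igf2r 12.6 against 6.86. The part of RNA from other cells in the class values was not tested. Igfbp2 was lower in 5 classes: astrocyte-like (148 against 2033 CPM, ratio 0.0729, interval 0.0638 to 0.0830), neural precursor-like (ratio 0.204), OPC-like (0.384), COP-like (0.0749) and microglia-like (0 against 19.997 CPM). In neuroblast-like cells it was 29.2 CPM in both libraries.

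Igfbp4 was lower in P7 SVZ in 4 classes, with ratios of 0.230 in astrocyte-like, 0.347 in COP-like, 0.389 in neural precursor-like and 0.426 in microglia-like cells. Igfbp7 was lower in 5 classes, among them COP-like cells at 2.86 against 20.6 CPM (ratio 0.139). Igfbp3 in COP-like cells was 4.28 against 45.6 CPM (ratio 0.0940), and Igfbpl1 was lower in neural precursor-like (0.380) and neuroblast-like cells (0.454). Higher in P7 SVZ were Igfbp5 in astrocyte-like cells (430.4 against 182 CPM, ratio 2.36), Igf2r in OPC-like (2.53) and neuroblast-like cells (3.04), and Igf1r in microglia-like cells (2.52). The cells came from different clusters in the 2 libraries: 39 against 24 and 8 for astrocyte-like, 33 against 20 and 23 for COP-like, 27 and 10 against 12 and 9 for OPC-like, 37 and 38 against 0 and 1 for neural precursor-like, and 15 and 36 against 14 and 16 for neuroblast-like cells. Most microglia-like cells of both lay in cluster 4.

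The astrocyte-like clusters of P7 cortex themselves differed in the same 2 members. Cluster 24, led by Kcnj16 and Igfbp2 among others, had 2714 CPM of Igfbp2 and 35.9 CPM of Igfbp5 in P7 cortex. Cluster 8, led by Gfap, had 324 CPM of Igfbp2 and 548 CPM of Igfbp5 in the same library. Cluster 39 of P7 SVZ, with 149 and 417 CPM, was nearer to cluster 8 in both members. In P2 cortex, however, cluster 8 had 1814 CPM of Igfbp2.

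**Figure D5:**
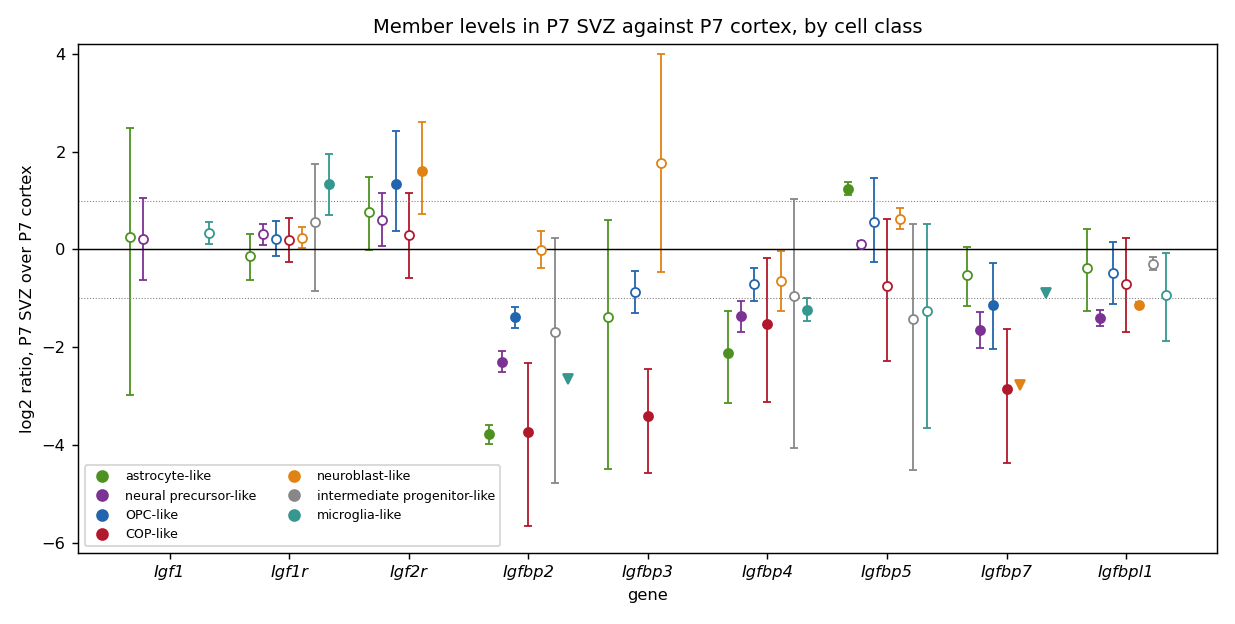
Ratio of P7 SVZ to P7 cortex on a log2 scale for each member in each class with at least 10 UMIs, with exact 95% intervals that cover counting error only and are drawn to the edge of the axis at most. Filled points are at least 2-fold with the interval on 1 side of 0, open points are not, triangles give the upper limit where P7 SVZ had no UMI, and dotted lines mark 2-fold. Most filled points for Igfbp2, Igfbp4 and Igfbp7 lie below 0, and those for the receptors Igf1r and Igf2r above it.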

How the data were processed

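Single-cell 3' libraries were made on the 10x Genomics platform, and the authors deposited raw UMI counts per gene and barcode from Cell Ranger 3.0.2 on mm10, per the file headers and the submitters' processing notes. Totals per library set the precision, and intervals cover counting error only. Barcodes needed at least 500 genes and at most 10% of UMIs from mitochondrial genes, and scrublet-type doublet calls in scanpy 1.11.5 removed 22 to 71 per library. Cells were clustered (Leiden, 30 components, 15 neighbours, resolution 1.5) on 1991 variable genes, leaving out 9 members or pathway genes, and named from marker lists by a scoring rule set after clusters were seen. Counts were summed per class and library (at least 20 cells) and tested with edgeR 4.0.16 (TMM scaling, filterByExpr, adjusted p under 0.05) or, as an alternative, DESeq2 1.42.0. The test was tested on simulated data for the age comparison in OPC-like cells over 9752 genes, where it called 18% of 2-fold and 83% of 4-fold changes. Gene positions are from GENCODE on GRCm38, the mm10 build. The members, the 47 pathway genes and the markers were chosen with earlier results of these data known. Named genes were all members, Igf2 and Insr, up to 3 called pathway genes a direction and the 3 most like each member, of which 1 is not reported here. Alternatives were other scaling, no filter on low counts, at least 50 cells, a mitochondrial limit of 20% and leaving out each library. No animal or replicate numbers were used.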

Additional observations from a re-analysis of the deposited data

Results flagged for a closer look

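Htra1, the secreted protease that cuts IGF binding proteins, had an age difference that differed between 2 classes by a test of the difference itself, an interaction term in edgeR's quasi-likelihood fit. The log2 value was -1.97, the adult minus early postnatal difference in astrocyte-like cells minus that in OPC-like cells. In OPC-like cells Htra1 was 5.80 CPM in P2 cortex, 26.7 in P7 cortex, 7.91 in P7 SVZ, 87.0 in P15 cortex, 188 in P60 cortex, 220.2 in P60 GM and 63.4 in P60 WM. In astrocyte-like cells it was 488 CPM in P2 cortex, 1204 in P7 cortex, 493 in P7 SVZ, 2469 in P15 cortex, 1546 in P60 cortex, 2016 in P60 GM and 1236 in P60 WM. The call was lost without P7 cortex (edgeR adjusted p = 0.0728), P60 cortex (0.147), P60 GM (0.145) or P60 WM (0.0618). The astrocyte list in the OPC-like sums was at 112 to 352 CPM early and 399 to 651 CPM in adults, and their part was not tested.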

How the results depend on the processing

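Of 110 recomputed counts of members, 84 stayed within 1.5 times the value reported and 26 moved. Of 806 values of single genes, 754 counted as the same. For test values this means the same side of the threshold, without a change of sign in a called value. For levels in the highest class, also among the 806, it means within 1 SD of the reported mean. Such a level could not change where the library left out held no sum of the class. Of the rest, 24 were no longer past the threshold, 26 were newly past it, 1 reversed and 1 level moved. Without a filter on low counts the members called by age numbered 3 in OPC-like, 2 in astrocyte-like, 1 in neuroblast-like, 2 in microglia-like, 1 in mural-like and 3 in endothelial-marked cells, and 4 in the test of astrocyte-like against OPC-like cells. More genes of any kind were called then: 1250 of 17745 in OPC-like, 136 of 17422 in neuroblast-like and 894 in endothelial-marked cells. For the rest, settings other than leaving out a library called at most 981 genes in astrocyte-like, 273 in microglia-like and 172 in mural-like cells. In the test between classes they called at most 949. DESeq2 called 2 in astrocyte-like, 2 in microglia-like and 0 in endothelial-marked cells, and at least 50 cells a sum left 0 in the last. Leaving out 1 library gave 0 to 1 members in OPC-like, 0 to 2 in astrocyte-like, 0 to 2 in microglia-like, 0 to 3 in mural-like, 0 to 3 in endothelial-marked cells and 0 to 4 in the test between classes, against 3 to 5 for COP-like against OPC-like cells. Igfbp7 in mural-like cells turned to 0.782 without P15 cortex against -1.16 without P7 SVZ, and the cause was not tested. Igfbp5 in its highest class was 883 CPM with a mitochondrial limit of 20%. At that limit a cluster of 520 cells led by Neurog2, Eomes and Cdc20 stayed unnamed. At the limit of 10% cluster 0 (469 cells, led by Cdc20), which was low in Igfbp5, counted as neural precursor-like. The part of this change of class in the level was not tested. Without thinning, 65 member and class pairs had a mean share of cells of at least 10%, against 33 with it, as depth then counts.

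Counts over all genes moved more: in OPC-like cells 655 were called, from 11 without P60 GM to 1250 without a filter. Astrocyte-like cells gave 31, from 0 without P7 cortex to 2544 without P15 cortex, and microglia-like cells 3, from 2 to 610 without P15 cortex. COP-like cells gave 3 (0 to 184), neuroblast-like 2 (0 to 136), mural-like 0 (0 to 757), endothelial-marked 425 (147 to 894), the test between classes 202 (0 to 1644) and COP-like against OPC-like 5210 (3654 to 6559). Groups of 2 to 4 libraries and members near 0 limit the calls, and a missed threshold does not show equal levels.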
